A study of Mus musculus with 37 samples.

Results

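The 76 genes described here encode the proteins of the mouse cytoplasmic ribosome. They are the genes whose symbol is Rpl or Rps followed by a number, with or without a or x, together with Rplp0, Rplp1, Rplp2 and Rpsa. They make up 76 of the 35885 genes listed in the data, 46 for the large subunit and 30 for the small subunit, and all 76 passed the filter on low values in each tissue. Subunit genes that carry other names, such as Fau, Rack1 and Rps3a1, are given separately.

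Wild-type C57BL/6N mice were subjected to social defeat stress, brief contact with an aggressive mouse, 1 time a day. Polyadenylated RNA was sequenced from 37 libraries of flushed femur bone marrow or of spleen. In bone marrow there were 3 libraries from undefeated controls, 4 after 1 defeat, 3 after 4 defeats, 5 after 10 defeats and 4 from mice left for 1 week after 10 defeats, called rested here. In spleen the same groups held 4, 2, 2, 6 and 4 libraries. All groups share the strain, and no allele or drug was used. Age and sex are not given in the sources used here. The submitters call the libraries biological replicates, and p-values measure the spread between these libraries.

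Ribosomal protein genes are transcribed together at high levels in every growing cell, and each protein is placed into the ribosome in 1 copy apart from the P1 and P2 stalk proteins, so their mRNAs are usually kept in step. Most of these mRNAs begin with a C followed by a run of pyrimidines, the terminal oligopyrimidine (TOP) sequence, through which the mTOR pathway controls their translation. In bone marrow and spleen, lymphocytes and blood cell precursors hold much mRNA for ribosomal proteins, while mature neutrophils make few new ribosomes. Inherited loss of 1 copy of a gene such as RPS19, RPL5 or RPL11 in people causes Diamond-Blackfan anaemia, a failure of red cell production.

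Pyrimidine runs at the annotated start were found in a minority of the members' promoter windows. RefSeq windows (GRCm38.p6) were matched for 56 members, in 66 windows of 300 bases, 250 before and 50 after each annotated start. A run of at least 8 pyrimidines reached or crossed the start in 28.8% of the members' windows and in 5.92% of the 32785 windows of other genes. A C at the start followed by at least 4 pyrimidines was found in 19.7% against 2.47%, and such a sequence within 10 bases of the annotated start in 54.5% against 30.7%. Of the motifs searched on both strands, CCGGAAG was present in 36.4% of member windows and 8.80% of the others, CTTTCC in 50% and 26.5%, AAGATGG in 16.7% and 6.32%, GGGCGG in 60.6% and 35.6%, CACGTG in 12.1% and 7.14%, and TATAAA in 9.09% and 13.6%. CTTTCC can overlap the pyrimidine run itself. The next sequences run from 60 bases before to 20 bases after the start, 5′ to 3′ on the gene's strand, with runs of 5 or more pyrimidines within 15 bases of the start in capitals. They belong to the gene with the highest values (Rps27), to 3 genes high in marrow after 10 defeats (Rpl28, Rplp2, Rps9) and to 2 genes high in spleen after 10 defeats (Rpl7a, Rps2).
Rps27, chr3:90213629-90213708, minus strand: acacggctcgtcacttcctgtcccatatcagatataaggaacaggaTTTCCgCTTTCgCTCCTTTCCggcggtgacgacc
Rpl28, chr7:4792905-4792984, plus strand: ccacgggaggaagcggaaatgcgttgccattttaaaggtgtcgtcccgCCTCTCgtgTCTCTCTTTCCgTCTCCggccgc
Rplp2, chr7:141447591-141447670, plus strand: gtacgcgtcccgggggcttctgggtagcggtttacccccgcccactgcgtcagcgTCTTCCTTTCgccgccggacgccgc
Rps9, chr7:3703981-3704060, plus strand: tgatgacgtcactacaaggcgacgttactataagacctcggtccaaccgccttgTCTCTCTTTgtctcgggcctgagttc
Rpl7a, chr2:26910747-26910826, plus strand: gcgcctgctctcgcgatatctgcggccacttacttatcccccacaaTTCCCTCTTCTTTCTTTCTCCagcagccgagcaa
Rps2, chr17:24720003-24720082, plus strand: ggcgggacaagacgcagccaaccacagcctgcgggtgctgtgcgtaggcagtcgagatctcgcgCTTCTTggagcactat
All 6 windows hold a pyrimidine run near the start, and those of Rpl7a and Rpl28 are long or repeated, while that of Rps2 is short.

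Values are the authors' scaled abundances, which are relative within a library. The 76 genes made up 5.72% to 8.87% of the library total in bone marrow and 11.1% to 21.8% in spleen. Levels of different genes cannot be ranked with certainty, because the sources do not state whether the values are per length. On this scale, averaged over the 37 libraries, Rps27 (mean 6801), Rpl13a (4929) and Rpl41 (3652) were highest. Rpl5 (25.9), Rpl12 (46.2) and Rpl27a (299) were lowest. The order differed between the tissues: Rps29 (2337), Rpl41 (2122) and Rplp1 (1944) had the highest means in marrow and Rps27 (12203), Rpl13a (8183) and Rps14 (5839) in spleen, while the same 3 genes were lowest in both. The median gene had a mean of 1477. The genes lie on 19 chromosomes, 14 of them on chromosome 7, and their transcripts run from 371 to 3706 bases.

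Library totals ran from 763386 to 1073110 in marrow and from 657918 to 2652290 in spleen. The 5 spleen libraries that stood apart were D6, D7, D9 and D10 after 10 defeats and D2 of the rested group. Haemoglobin genes held 45.4% to 58.8% of their values, their totals were 1539150 to 2652290, and short transcripts were favoured in them, with a log2 slope of -0.232 to -0.201 per doubling of transcript length relative to the spleen controls. The slope in the other 13 spleen libraries was -0.141 to 0.0712. The median log2 value of the 76 genes was 11.2 to 11.9 in these 5 libraries and 10.2 to 11.1 in the other 13. Both spleen libraries after 1 defeat had a GC slope of -0.441 or -0.435 log2 units per 10 points of GC. The tissue labels were checked against markers: of 11 listed marrow markers 10 were called lower and none higher in control spleen than in control marrow, and of 12 spleen markers 12 were called higher. No marker of any list was at 0 throughout.

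**Figure D1:**
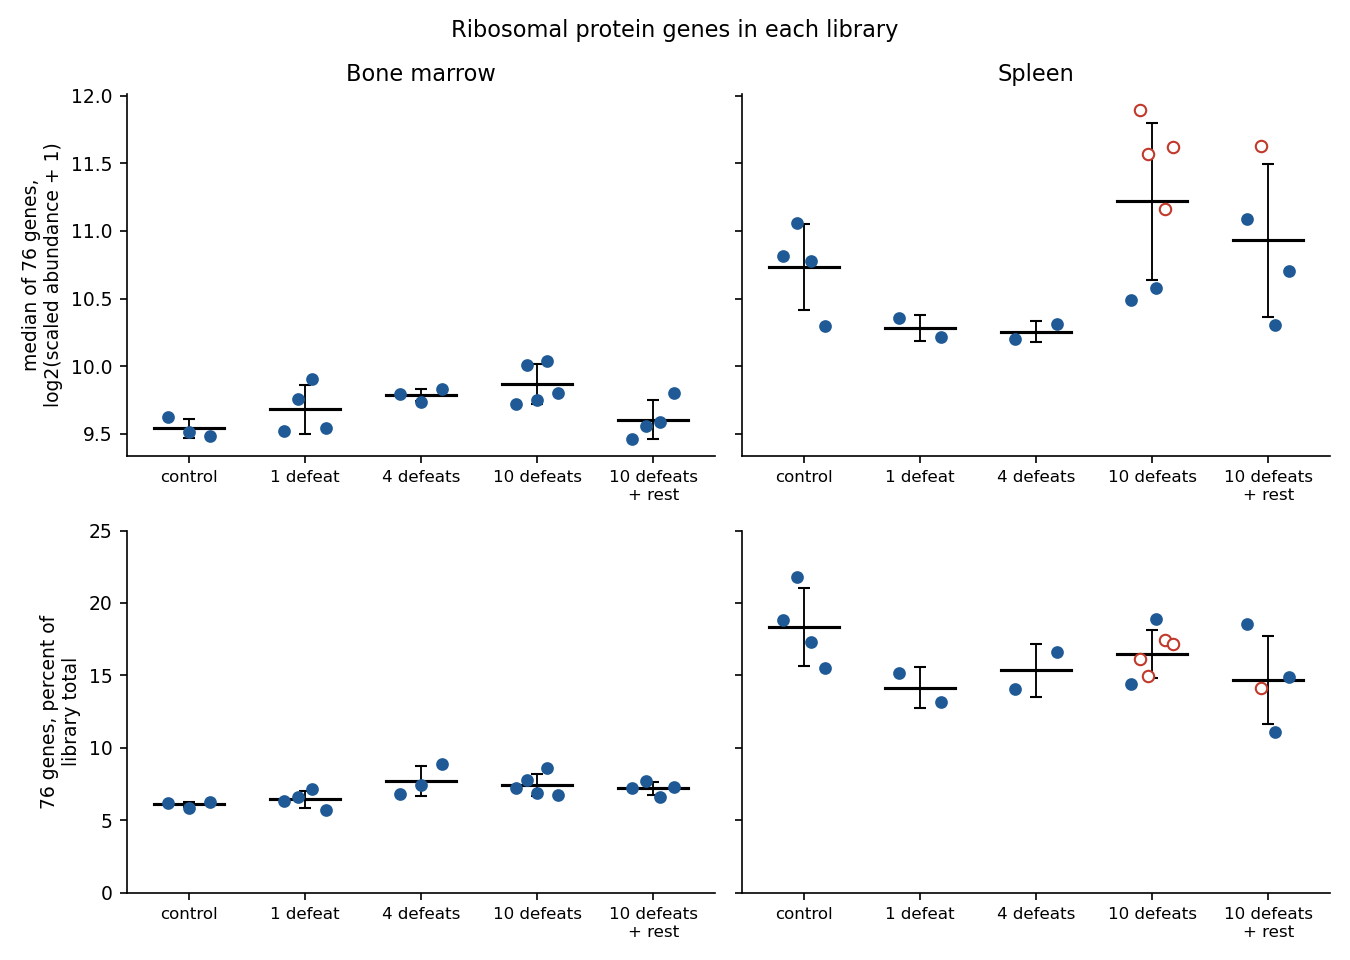
Median log2(scaled abundance + 1) of the 76 genes (top) and their summed share of the library total in percent (bottom), by library and group; bars are group means with SD, and open red points are the 5 spleen libraries that favour short transcripts. Bone marrow medians lie between 9.46 and 10.0 and all spleen medians between 10.2 and 11.9; the 5 open points are the highest spleen medians, but not the highest shares.

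The comparison with the most calls was that between the tissues. Ribosomal protein mRNAs were higher in spleen than in bone marrow of undefeated mice: 72 of 76 genes rose past an adjusted p of 0.05 and none fell, where 27.1% of all genes were called higher and 19.2% lower. Of the large subunit genes 43 of 46 were called, and of the small subunit genes 29 of 30. The median difference was 1.20 on the log2 scale, against 0.10 over all genes, with a range from 0.44 to 2.50. In all 76 genes every spleen control was above every marrow control, as in 35.1% of all genes. Under every scaling tried the members stayed higher in spleen, with 45 to 76 called, 44 of them under all settings, and none lower. The family's share of the total was 6.10% ± 0.20 (SD, n = 3) in marrow controls and 18.4% ± 2.67 (SD, n = 4) in spleen controls.

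Rps27, a zinc-finger protein of the small subunit, differed most. Its values were 1648, 1634 and 1503 in the marrow controls and 8218, 13634, 9691 and 6048 in the spleen controls. The lowest spleen value is well above the highest marrow value, and the log2 difference was 2.50 ± 0.45 (SE; adjusted p = 2.76e-05). Rps21, a small subunit protein, had 837, 773 and 719 in marrow against 2479, 3506, 2820 and 1855 in spleen (1.74 ± 0.42, adjusted p = 0.000838). Rpl39, a very small protein of the exit tunnel, had 518, 517 and 508 against 1587, 2996, 1589 and 1117 (1.73 ± 0.39, adjusted p = 0.00044). In both genes the spleen controls spread more than the marrow controls, with C4 the lowest and C2 the highest spleen library.

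Rps14 (1.90 ± 0.52), Rpl13a (1.82 ± 0.49) and Rps24 (1.74 ± 0.45) complete the 6 largest differences, with adjusted p of 0.00303, 0.00293 and 0.00194. The 4 genes not called were Rps12 (0.82, adjusted p = 0.0902), Rpl41 (0.78, 0.153), Rpl12 (0.69, 0.184) and Rpl5 (0.44, 0.28). Rpl12 and Rpl5 are the genes with almost all of their sequence-matched value listed under another locus, as described below. Among genes often used as markers of the family, the stalk base protein Rplp0 differed by 1.15 ± 0.27, Rps6, the target of S6 kinase, by 1.04 ± 0.26 and Rpsa, which is also the laminin receptor precursor, by 1.31 ± 0.26 (adjusted p = 0.000883, 0.00113 and 0.00012).

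After the family median of each library was subtracted, the tissues still differed in composition, with 9 genes relatively higher in spleen and 7 lower (all genes: 3.49% and 64.1%). Rps27 (1.30 ± 0.24, adjusted p = 4.13e-05), Rps14 (0.71) and Rpl13a (0.63) were farthest above the median difference. Rpl5 (-0.76) and Rpl10 (-0.69) were farthest below among those called, and Rpl28 (-0.55) had an adjusted p of 0.0733. Rps27, Rps21 and Rpl39 were called higher under every setting and Rps2 (-0.47 ± 0.12) lower. The relative position of Rpl5 turned positive under quantile normalization (0.18) and with its copies added (0.13). With copies added Rpl10 (-0.32, adjusted p = 0.139), Rpl13a (0.52, 0.0658) and Rps14 (0.60, 0.0586) did not pass. Leaving out 1 control library at a time left 3 to 7 higher and 3 to 10 lower genes, and marrow C1 and C2 and spleen C2 moved both counts by over 1.5 times, while marrow C4 and spleen C1 moved the higher count.

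Cell content differed between the tissues as well. The summed value of 15 mature B cell markers was 2382 ± 282 (SD, n = 3) in marrow controls and 9891 ± 1167 (SD, n = 4) in spleen controls. That of 16 mature neutrophil markers was 64714 ± 4704 in marrow and 430 ± 98.4 in spleen. The part of cell content in the family's difference was not tested. In such bulk samples fewer cells of a type and less RNA per cell cannot be told apart.

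In bone marrow the family was higher after repeated defeat on the authors' scale. The family median was 9.62, 9.51 and 9.48 in the 3 controls. It was 9.72, 10.0, 9.75, 10.0 and 9.80 after 10 defeats, each above the highest control, and 9.46, 9.56, 9.59 and 9.80 in the rested mice, which overlap the controls. After 1 defeat no member was called in either direction (all genes: 0.00% higher and 0.00804% lower, 1 gene), with a member median of 0.18. By limma 7 of the 76 members had an unadjusted p under 0.05. Of all 12442 genes 93 were higher and 442 lower at that level. After 4 defeats 10 members rose and none fell (all genes: 7.07% and 13%). After 10 defeats 40 rose and 1 fell (all genes: 17.5% and 28.3%), and the member median of 0.30 stood against -0.13 over all genes.

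The direction of that change depends on the scaling. With quantile normalization 1 member was higher and 22 lower after 10 defeats (median -0.12), where 22.2% and 18.5% of all genes were. With equal totals after haemoglobin removal 2 were higher and 27 lower (median -0.19), where 4.80% and 63.7% of all genes were. With median-ratio rescaling 53 were higher and 1 lower (median 0.45, all genes 24.1% and 19.4%), and with equal totals 29 and 1 (0.25, all genes 10.8% and 21.9%). The same rescalings move all genes, whose median change ran from -0.53 with equal totals without haemoglobin to 0.02 with quantile normalization. In each of these settings the members' median lay above that of all genes except under quantile normalization. Rpl28 was the only member called higher under every setting.

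**Figure D2:**
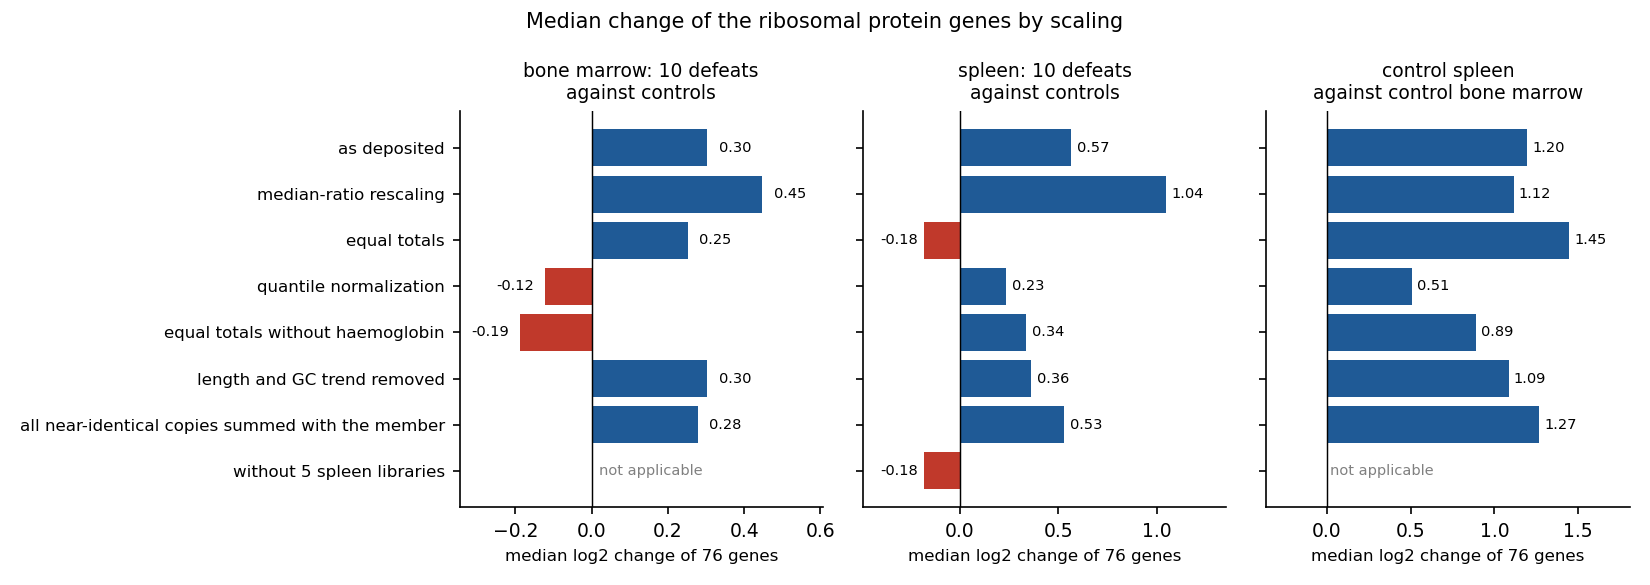
Median log2 change of the 76 genes under each scaling, for 10 defeats against controls in bone marrow (left) and spleen (middle) and for control spleen against control marrow (right); blue bars are positive and red bars negative. The marrow median is 0.30 as deposited but -0.12 and -0.19 under quantile normalization and equal totals without haemoglobin, the spleen median turns to -0.18 under equal totals and without the 5 libraries, and the tissue difference stays between 0.51 and 1.45.

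Other measures moved with the marrow groups. Haemoglobin genes held 42.1% ± 2.96 (SD, n = 3) of the controls' values, 24.7% ± 13.3 (n = 3) after 4 defeats, 21.3% ± 6.60 (n = 5) after 10 and 28.3% ± 11.2 (n = 4) in rested mice. The mature neutrophil sum was 64714 ± 4704 in controls and 184900 ± 48569 after 10 defeats, and the mature B cell sum 2382 ± 282 and 830 ± 194. The family's share of the total was 6.10% ± 0.20 and 7.46% ± 0.76, but of the total without haemoglobin it was 10.5% ± 0.50 and 9.47% ± 0.64. The part of these shifts in the members' changes was not tested.

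Of the 10 genes that rose after 4 defeats, 8 were among the 30 small subunit genes and 2 (Rpl11 and Rpl32) among the 46 large subunit genes. The subunit medians were close, 0.31 and 0.27. Rps12 had the largest change (0.54 ± 0.15, adjusted p = 0.0207), or 0.45 with its near-identical copies added (0.0544). Rpsa had 1063, 976 and 995 in controls and 1384, 1451 and 1440 after 4 defeats (0.50 ± 0.13, adjusted p = 0.015). Rps9, a small subunit protein needed early in its assembly, had 1313, 1230 and 1107 against 1663, 1768 and 1647 (0.48 ± 0.13, adjusted p = 0.017). Both genes separated the groups without overlap, as did 61 members in all that were higher in every 4-defeat library, where 15.4% of all genes were. Rps27a, made as a fusion with ubiquitin (0.46), Rps2 (0.46), Rps25 (0.40), Rps3 (0.38), Rpl32 (0.38) and Rpl11 (0.36) had adjusted p between 0.0245 and 0.0435. The count is fragile: without control C4 it was 0, without C2 1 and without C1 5, and without D14 or D12 of the 4-defeat group it was 2 or 3. It was also 0 under quantile normalization and with equal totals without haemoglobin (2 members then lower).

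After 10 defeats Rpl28, a large subunit protein without a bacterial counterpart, changed most. Its values were 611, 545 and 505 in controls and 739, 1195, 983, 1072 and 957 after 10 defeats. Every defeated library was above every control, and the change was 0.82 ± 0.15 (adjusted p = 0.000525), with 0.33 to 0.97 under the other scalings and settings. In rested marrow it was 561, 544, 668 and 797, a fall of -0.62 ± 0.14 from the 10-defeat level (adjusted p = 0.00636). Rps9 went from 1313, 1230 and 1107 to 1675, 2291, 1912, 2086 and 1931 (0.70 ± 0.11, adjusted p = 0.000308), also without overlap. Its rested values were 1386, 1272, 1293 and 1568 (-0.52 ± 0.11 from 10 defeats, adjusted p = 0.00457). The rested values of both genes overlap those of the controls, with D8 the highest.

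Rplp2, a protein of the acidic stalk that recruits elongation factors, was 1004, 878 and 809 against 1145, 1569, 1426, 1640 and 1479 (0.69 ± 0.16, adjusted p = 0.00303). Rps20 was 404, 395 and 383 against 485, 786, 591, 775 and 546 (0.66 ± 0.17, adjusted p = 0.00474), or 0.36 with its near-identical copies added (0.0512). In both genes library D5 was the lowest of the 10-defeat group and still above the controls. Rpl38 rose by 0.62 ± 0.16 (adjusted p = 0.00534) and is known for its role in the translation of Hox mRNAs. In all, 50 members were higher in every 10-defeat library than in every control (all genes: 19.4%), 24 large and 16 small subunit genes were called higher, and leaving out control C4 or C2 lowered the 40 calls to 19 or 21.

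Of the other reference genes, Rps27a (0.62, adjusted p = 0.00203), Rps6 (0.49, 0.00968), Rpsa (0.44, 0.00578), Rpl22 (0.41, 0.0107) and Rpl41 (0.37, 0.0351) rose. Rps6, Rpsa, Rpl22 and Rpl41 turned to values below 0 with equal totals without haemoglobin. Rps19 (0.28, adjusted p = 0.0794), Rplp0 (0.20, 0.11), Rpl11 (0.01, 0.933), Rpl3 (-0.10, 0.36) and Rpl5 (-0.19, 0.301) did not pass the test. Rps19, Rpl5 and Rpl11 are the members named above for Diamond-Blackfan anaemia, and the free Rpl5 and Rpl11 proteins are known to bind Mdm2.

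Rpl12, a protein at the base of the stalk, was the only member that fell in marrow after 10 defeats. Its listed values were 28.0, 24.4 and 27.7 in controls and 18.8, 13.4, 14.2, 12.8 and 15.6 after 10 defeats, without overlap (-0.80 ± 0.17, adjusted p = 0.00153). Rested mice had 20.04, 22.1, 23.4 and 23.9, between these groups (0.56 ± 0.16 above 10 defeats, adjusted p = 0.019). With the near-identical copies of Rpl12 added, the change was -0.18 (adjusted p = 0.137). The listed value is 1 small part of the Rpl12-like sequence in these libraries.

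Between rested marrow and controls no member was called (0 higher and 0 lower, all genes: 0.00% in both directions). By limma no member had an unadjusted p under 0.05, although Rpl12 was lower in every rested library than in every control. Against 10 defeats, 20 members fell and Rpl12 rose (all genes: 7.91% lower and 13.8% higher), 10 from each subunit, with a median of -0.23 against 0.09 over all genes. Rps16 (-0.52 ± 0.13), Rps27a (-0.42 ± 0.13), Rpl7 (-0.40 ± 0.12) and Rps6 (-0.39 ± 0.13) fell with adjusted p of 0.0102, 0.0264, 0.0239 and 0.0369. With near-identical copies added Rps16 was -0.21 (adjusted p = 0.131), Rps6 -0.24 (0.0938) and Rpl12 0.10 (0.444). This direction also turned with the scaling: quantile normalization gave 10 higher and 2 lower (all genes: 6.97% and 8.81%), and equal totals without haemoglobin 19 higher and 0 lower, where 50.9% of all genes were higher and 1.97% lower. The 20 falls became 4 without rested library D2, 6 without 10-defeat D6, 7 without rested D1, 8 without 10-defeat D9, 10 without rested D3 and 32 without rested D8. The call of Rpl12 was lost without rested D3. The comparisons against controls and against 10 defeats share libraries.

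Subtracting each library's family median removes the common scaling. After 10 defeats 11 marrow members then lay above the family and 14 below it (all genes: 5.42% and 50%). Rpl28 (0.50 ± 0.11, adjusted p = 0.00134), Rps9 (0.37 ± 0.08, 0.00177) and Rplp2 (0.36 ± 0.10, 0.007) were among those farthest above. Rpl12 (-1.13 ± 0.23, 0.000989), Rpl5 (-0.52 ± 0.16, 0.0129) and Rpl3 (-0.43 ± 0.10, 0.00254), which lies near the peptidyl transferase centre, were farthest below. With copies added Rpl12 was -0.48 (adjusted p = 0.000875), Rpl28 0.31 (0.00465) and Rpl5 -0.23 (0.0372). Under every setting 8 genes were above, among them Rpl28, Rpl35a, Rpl38, Rplp2, Rps9, Rps26 and Rps27a, and 6 were below (Rpl3, Rpl4, Rpl12, Rpl13a, Rpl15 and Rpl19). Without control C4 the counts were 7 and 8.

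In rested marrow relative to 10 defeats, 12 members were above the family and 8 below (all genes: 35.8% and 1.78%). Rpl12 (0.82), Rpl5 (0.40) and Rpl11 (0.38) were farthest above, and Rpl28 (-0.36) and Rplp2 (-0.31) were among those farthest below. Rpl3, Rpl12 and Rpl15 were above and Rpl28 below under every setting. With copies added Rpl12 was 0.33 and Rpl28 -0.21, while Rpl11 (0.18, adjusted p = 0.0569) and Rpl5 (0.16, 0.144) did not pass. Without 1 library at a time the counts were 4 to 16 and 0 to 10, the latter 0 without rested library D2. Leaving out 10-defeat D6 or D9 or rested D1 or D2 moved both counts by over 1.5 times, and 10-defeat D10 or rested D3 moved the first.

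In spleen the first defeats gave no calls. The family median was 10.8, 11.1, 10.8 and 10.3 in controls, 10.4 and 10.2 after 1 defeat, and 10.2 and 10.3 after 4. No member was called after 1 defeat (all genes: 0.624% higher and 0.0645% lower) or after 4 (0.0430% and 0.00%). By limma 8 and 1 of the 76 members had an unadjusted p under 0.05. Of all 13945 genes 1523 were higher and 581 lower at that level after 1 defeat, and 645 and 669 after 4. The member medians of -0.44 and -0.42 stood against 0.07 and -0.04 over all genes, and in 35 and 36 members both defeated libraries were below every control (all genes: 16.9% and 16.1%). Fitting only the compared groups gave 14 lower and 1 higher after 1 defeat (all genes: 5.02% and 8.15%), and leaving out the 5 libraries that favour short transcripts also gave 14 and 1 (4.23% and 8.61%). Rpl28 was 909, 773, 1103 and 720 in controls and 373 and 318 after 1 defeat (-1.33 ± 0.35, adjusted p = 0.0922), and both of these libraries had the steep GC slope given above.

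After 10 defeats 12 spleen members (15.8%) rose and 1 (1.32%) fell, where 16.8% and 41.9% of all genes did. The share of members that rose was thus near that of all genes. Of the 12, 9 were among the 46 large subunit genes and 3 among the 30 small subunit genes. The subunit medians were 0.53 and 0.60. The member median was 0.57 against -0.36 over all genes. It was 0.36 with the length and GC trend removed and 0.23 under quantile normalization (all genes: -0.34 and -0.06). The family medians were 10.5 (lowest), 11.4 (median) and 11.9 (highest) in the 6 libraries, against 10.3 to 11.1 in controls, so the groups overlapped. Without the 5 libraries named above 1 member was higher and 2 were lower, with a median of -0.18 (all genes: 8.59% higher, 15.2% lower and a median of -0.22). The 2 remaining libraries, D4 and D5, had family medians of 10.6 and 10.5. With equal totals 1 was higher and 9 lower (all genes: 5.55% and 51.4%), and with median-ratio rescaling 33 higher and 0 lower (28.3% and 24.9%). The count moved with most single libraries: without D5 or D4 it was 31 or 29, and without any 1 of D6, D7, D9 and D10 it was 5, 6, 7 or 6, while without control C1, C3 or C4 it was 5, 4 or 3.

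Rps2, a protein near the mRNA entry channel, rose in spleen with the smallest adjusted p. Its values were 1466, 1503, 1573 and 1169 in controls and 2086 (lowest), 3243 (median) and 4697 (highest) after 10 defeats. All 6 defeated libraries were above the controls, and the change was 1.13 ± 0.27 (adjusted p = 0.00315). It was 0.60 without the 5 libraries (adjusted p = 0.0431) and 0.38 with equal totals (0.12). Rplp0 had 2263, 2614, 2369 and 1743 in controls against 2671, 4967 and 7698 (1.01 ± 0.33, adjusted p = 0.0159), or 0.27 without the 5 libraries (0.377). Rpl7a, a large subunit protein, had 1291, 1455, 1494 and 1066 against 1545, 3234 and 4764 (1.07 ± 0.34, adjusted p = 0.0145), or 0.28 without them (0.32). Of these 3 genes, the lowest defeated libraries of Rplp0 and Rpl7a lay just above the highest control.

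Rpl11 had the largest listed change, with 1410, 2027, 1498 and 1011 in controls and 1488, 4318 and 9106 after 10 defeats (1.34 ± 0.52, adjusted p = 0.0347). Rpl15, a structural protein of the large subunit, had 720, 920, 805 and 600 against 882, 2133 and 3853 (1.24 ± 0.41, adjusted p = 0.0173). In both genes 2 defeated libraries, D4 and D5, lay within the range of the controls. Rpl10a (0.95), Rpsa (0.81), Rpl14 (0.76), Rpl36a (0.69), Rpl3 (0.68) and Rpl10 (0.66) rose with adjusted p between 0.0196 and 0.0471. Rpl41 (1.18, adjusted p = 0.0587), Rpl22 (0.72, 0.162), Rps6 (0.65, 0.0648), Rps27 (0.58, 0.354), Rps19 (0.45, 0.306) and Rpl5 (0.26, 0.534) did not pass.

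Rpl30, a large subunit protein that can bind RNA kinks, was the only spleen member that fell. Its values were 1988, 2468, 1591 and 1535 in controls and 654 (lowest), 973 (median) and 1191 (highest) after 10 defeats, with no overlap (-0.99 ± 0.21, adjusted p = 0.00152). Without the 5 libraries the change was -0.77 (adjusted p = 0.0217), and with median-ratio rescaling it was -0.51 (0.0624), the setting under which the call was lost. Rested mice had 1199, 1083, 1186 and 1044, also below the controls (-0.72 ± 0.23, adjusted p = 0.0625). In marrow it was 716, 723 and 714 in controls and 772, 840, 773, 1041 and 842 after 10 defeats (0.24 ± 0.11, adjusted p = 0.0904).

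In rested spleens no member was called against controls (all genes: 3.02% higher and 4.24% lower) or against 10 defeats (0.272% and 0.294%). By limma 1 member in each comparison had an unadjusted p under 0.05. Against controls this was Rpl30, whose rested values all lay below every control. Of all genes 1154 were higher and 2941 lower at that level against controls, and 2001 and 1080 against 10 defeats. The medians were 0.25 and -0.30 on the log2 scale. Without the 5 libraries 2 members were lower than in controls (all genes: 11%). Haemoglobin genes held 14.5% ± 5.78 (SD, n = 4) of control spleen values, 2.004% ± 0.26 (n = 2) after 1 defeat, 38.8% ± 16.8 (n = 6) after 10 and 40.1% ± 13.4 (n = 4) in rested mice. The erythroid sum of 17 markers was 120478 ± 56321 in controls and 663183 ± 441441 after 10 defeats, while the mature B cell sum was 9891 ± 1167 and 3942 ± 2469. Their part in the members' values was not tested.

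Relative to the family median, 9 spleen members lay above and 6 below after 10 defeats (all genes: 6.22% and 36.7%). Rpl11 (0.86 ± 0.27), Rpl15 (0.76 ± 0.18) and Rpl41 (0.69 ± 0.26) were farthest above, with adjusted p of 0.0252, 0.0136 and 0.0435. Rpl30 (-1.48 ± 0.33), Rpl23 (-0.89 ± 0.30) and Rps20 (-0.76 ± 0.21) were farthest below, with adjusted p of 0.00925, 0.0303 and 0.0193. Rps2 (0.64 ± 0.15, adjusted p = 0.0113) was above under every setting and no member was below under every one. Without the 5 libraries 1 was above and 1 below. Leaving out any control, or any 1 of D6, D7, D9 and D10, left 4 or 5 above, and 2 to 9 were below without 1 library at a time, with 3 or fewer without control C1 or C4 or any of those 4 libraries.

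**Figure D3:**
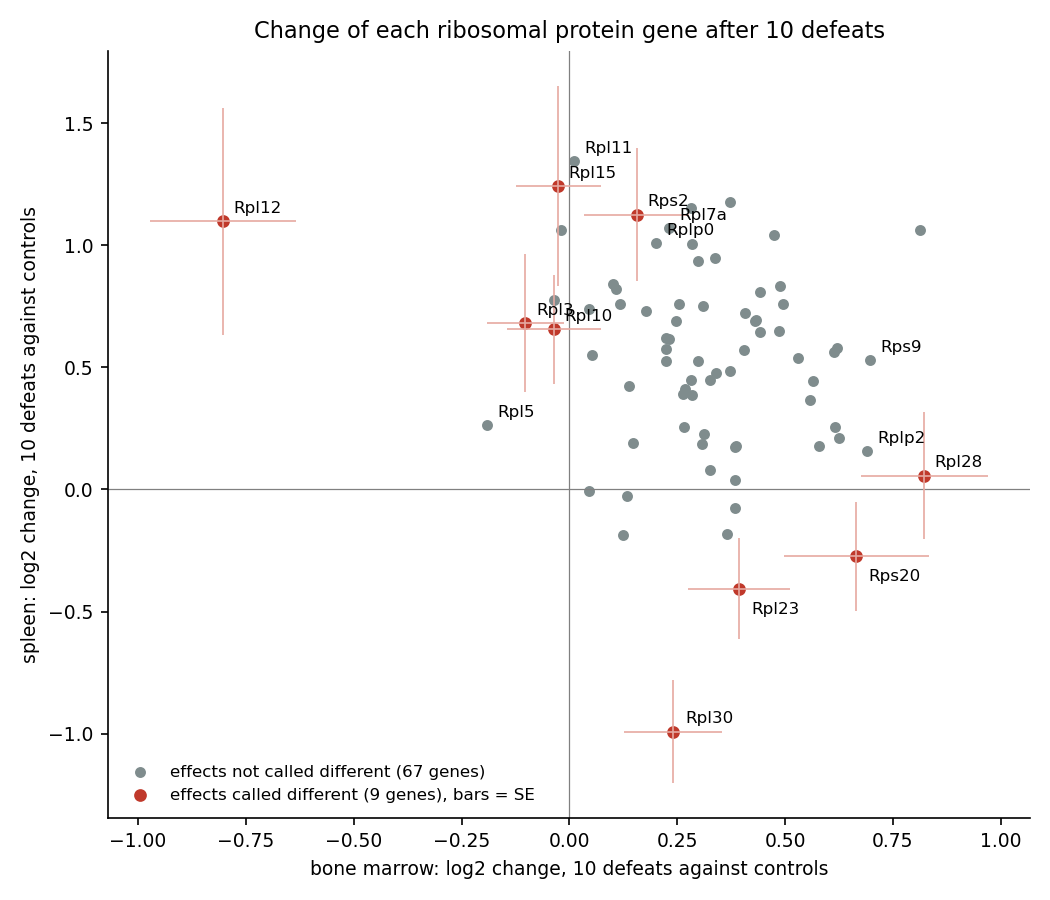
Log2 change after 10 defeats of each of the 76 genes in bone marrow (x axis) and spleen (y axis); red points with SE bars are the 9 genes whose changes were called different between tissues, and grey points the other 67. Rpl30 is lowest in spleen (-0.99), Rpl12 lowest in marrow (-0.80), and Rpl28 is highest in marrow (0.82) with 0.06 in spleen; the directions of the cloud depend on the scaling.

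The test of the difference between the tissues' 10-defeat changes, spleen minus bone marrow, called 5 members higher and 4 lower (all genes: 16.1% and 27.0%). Rpl30 had the clearest difference, -1.23 ± 0.23 (adjusted p = 0.000101), and it was called lower under every setting, from -0.75 with quantile normalization to -1.93 with equal totals. Rps20 (-0.94 ± 0.27, adjusted p = 0.00693), Rpl23 (-0.80 ± 0.23, 0.00564) and Rpl28 (-0.77 ± 0.30, 0.0392) were also lower. Rpl12 (1.90 ± 0.53, adjusted p = 0.0053), Rpl15 (1.27 ± 0.45, 0.0229), Rps2 (0.97 ± 0.30, 0.00967), Rpl3 (0.78 ± 0.30, 0.0334) and Rpl10 (0.69 ± 0.24, 0.023) were higher. With copies added, Rpl12 had 0.59 (adjusted p = 0.272), Rpl10 0.00 (0.994) and Rpl28 -0.53 (0.101).

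These counts turned with the scaling, with 25 higher and 3 lower under quantile normalization (all genes: 19.0% and 23.5%), 2 and 24 with equal totals (6.38% and 30.3%), and 0 and 29 without the 5 libraries (14.3% and 17.8%). Without spleen library D5 or D4, 11 or 10 were higher, and 3 without marrow control C2 or spleen control C4. Rps20 shows what the test compares. In spleen its values were 1287, 1494, 1192 and 913 in controls and 780 (lowest), 957 (median) and 1362 (highest) after 10 defeats (-0.27 ± 0.22, adjusted p = 0.298). The groups overlapped in spleen, whereas they were separate in marrow.

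**Figure D4:**
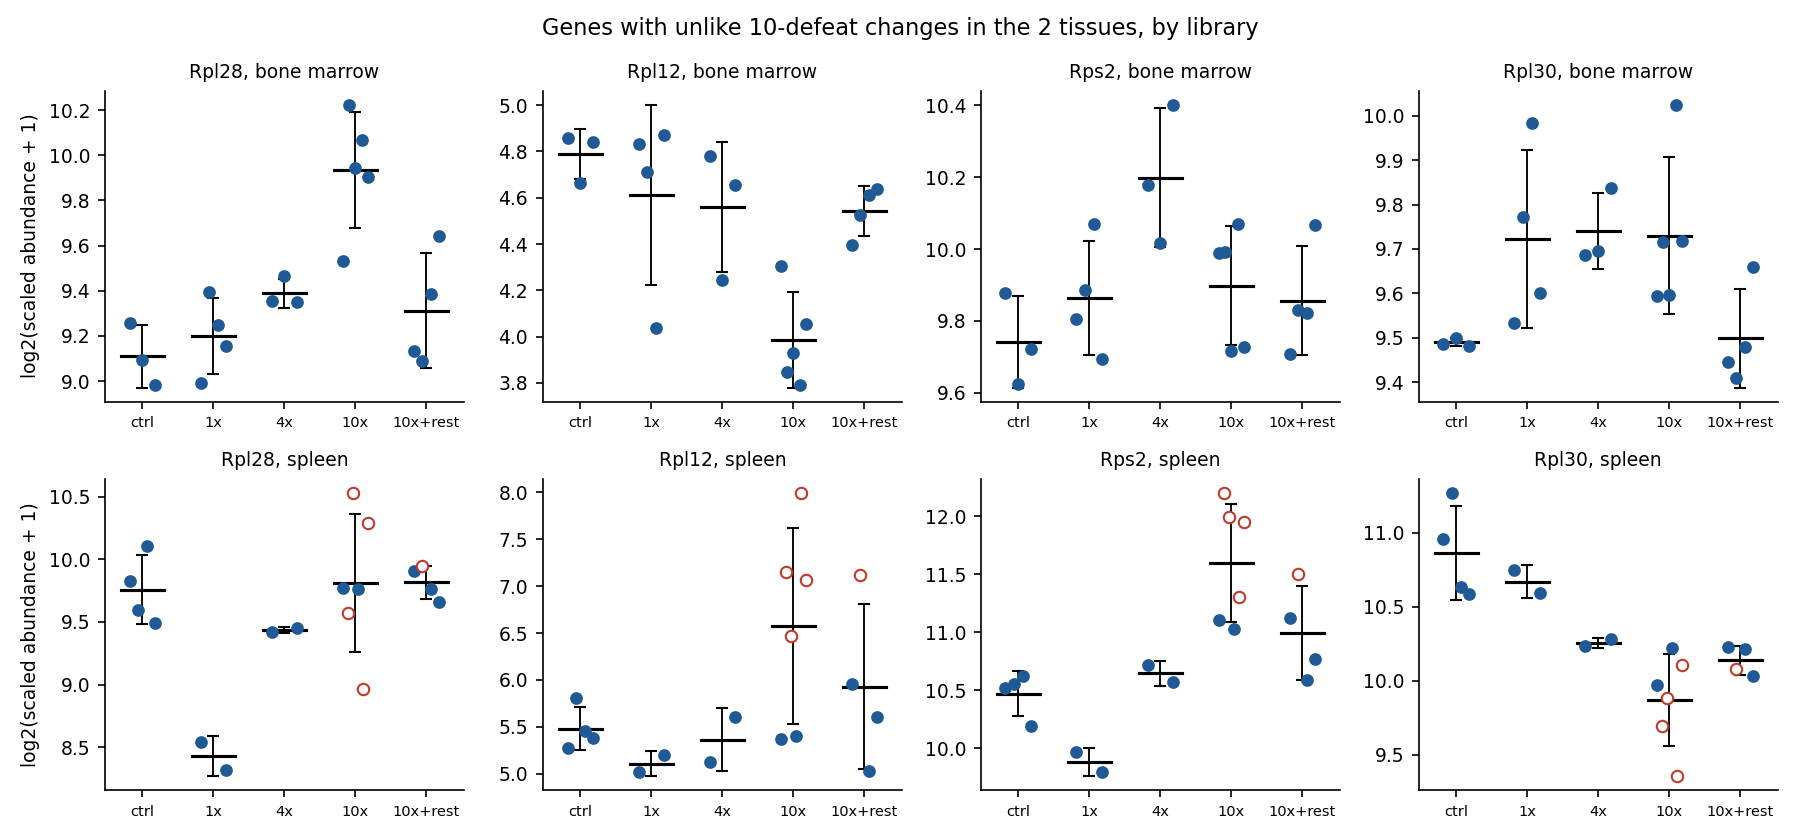
Log2(scaled abundance + 1) of Rpl28, Rpl12, Rps2 and Rpl30 by library in bone marrow (top) and spleen (bottom), with group means and SD; open red points are the 5 spleen libraries that favour short transcripts. Rpl28 values after 10 defeats lie apart from the controls in marrow and overlap them in spleen, Rps2 and Rpl30 lie apart in spleen, above and below, and Rpl12 is lower in marrow while its spleen values overlap the controls.

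Many members have near-identical processed copies elsewhere in the genome, and the deposited values are split among them. Copies were sought with the coding sequence, at 95% identity or more over at least 80% of its length, and 548 were found for 70 members, 531 of them annotated as pseudogenes. For 41 of these members the copies held under 1% of the summed value, for 24 over 10% and for 7 over 50%. For 2 members nearly all of the value was listed under a copy. Of the summed value of Rpl5 and its copies 97.9% lay on them (96.5% to 99.1% over the libraries), led by Gm15500 at chr7:114705217-114706235. Of that of Rpl12 97.9% did, led by Gm10275 at chr10:29698746-29699380 (coordinates of GRCm38). Rpl27a (86.5%), Rps23 (78.1%), Rpl10 (76.9%), Rpl27 (65.6%) and Rpl28 (59.0%) follow. The coding starts of Rpl5 and Rpl12 are shown because both stretches are present letter for letter in the leading copy.
Rpl5, coding bases 1 to 90: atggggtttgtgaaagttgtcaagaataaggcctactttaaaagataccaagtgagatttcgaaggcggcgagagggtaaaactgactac
Rpl12, coding bases 1 to 90: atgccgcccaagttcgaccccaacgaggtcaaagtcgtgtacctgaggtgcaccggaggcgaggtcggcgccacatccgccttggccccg
The whole coding sequence was present in the leading copy for 12 of the 24 members, among them Rpl5, Rpl12, Rpl10, Rpl28 and Rpl15. For others a single base tells the copy from the gene, counted from 1 at the A of the start codon. Gm9794 differs from Rpl23 by C253T and Gm10288 from Rpl11 by G86A, in capitals in these 40-base stretches.
Rpl23: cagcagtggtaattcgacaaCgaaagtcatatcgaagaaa
Gm9794: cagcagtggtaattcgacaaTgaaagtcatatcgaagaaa
Rpl11: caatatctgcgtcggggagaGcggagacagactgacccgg
Gm10288: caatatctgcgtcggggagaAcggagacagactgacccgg
The sources used here do not say how reads shared by a gene and its copy were divided.

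**Figure D5:**
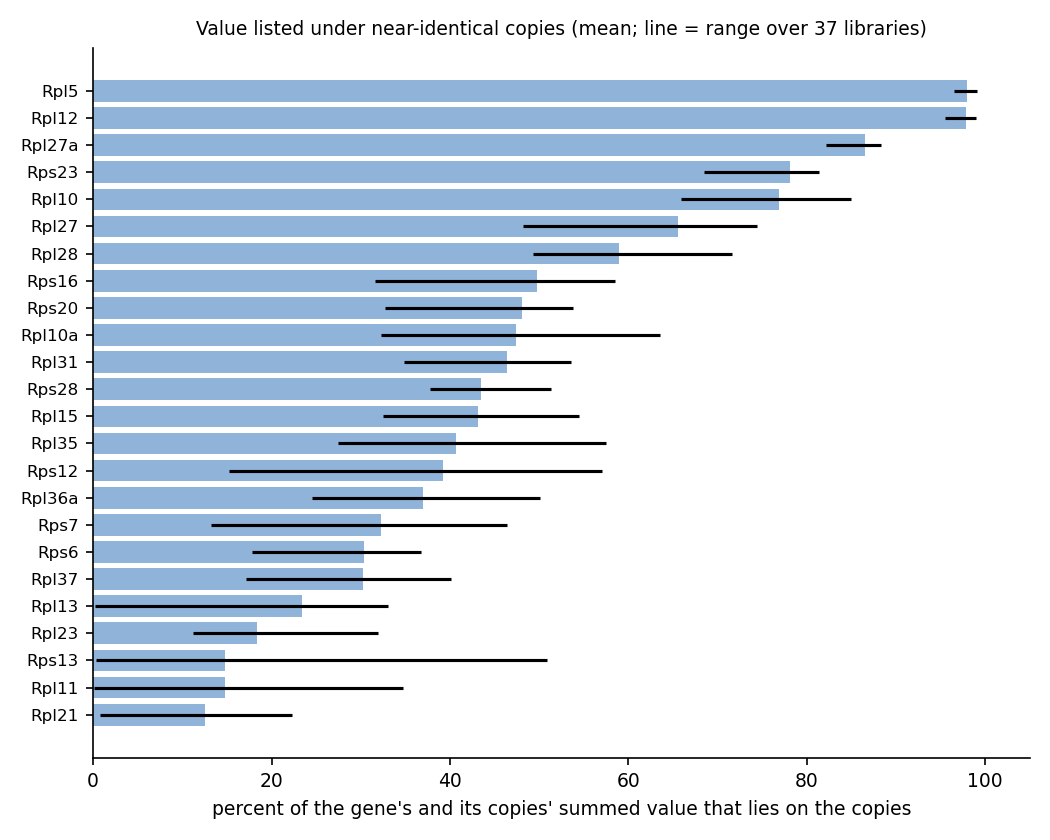
Share of each gene's summed value that lies on its near-identical copies, in percent, for the 24 members above 10%; bars are means and lines the range over the 37 libraries. Rpl5 and Rpl12 stand at 97.9%, and 5 further genes lie above 50%.

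The values with the copies added can be set beside these. In marrow after 10 defeats 38 members were then higher and 0 lower, 34 of the 38 among the 40 called without copies. Rpl28 rose by 0.61 with its copies (adjusted p = 0.00158), and its copy Rpl28-ps1 alone by 0.43 ± 0.12 (0.00959). Rpl27a (0.22, adjusted p = 0.124) and Rps23 (0.25, 0.0504) no longer passed, as Rps20 above. Between control tissues Rpl12 with its copies differed by 1.87 (adjusted p = 3.27e-05) and Rpl5 by 1.43 (0.00286), so that both joined the genes higher in spleen. Gm10275 alone differed by 1.90 ± 0.34 (adjusted p = 2.80e-05) and Gm15500 by 1.45 ± 0.39 (0.00266).

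Most members varied with the family median from library to library, as did some genes outside the family. After centring within tissue, the correlation of a member with the family median had a median of 0.91 over the 37 libraries. These libraries share their scaling, and each member is part of the median. The correlations of all genes are not given here, so the value is not shown to be particular to the members. Rpl32 (0.978), Rps10 (0.974) and Rps21 (0.969) were closest. Rpl30 was farthest (-0.25, with 0.86 in marrow and -0.39 in spleen), then Rpl23 (0.10, with 0.97 and -0.11) and Rpl4 (0.15, with 0.53 and 0.05). Across the 76 genes the 10-defeat changes in marrow and spleen had a Pearson r of -0.24 and a Spearman rho of -0.26. Of genes outside the family, Ndufb11 (0.965), Rack1 (0.960), Eif3k (0.959), Mrps16 (0.957) and Hint1 (0.953) had the highest correlation with the family median.

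Subunit genes with other names include Fau, a fusion of a ubiquitin-like and a small subunit protein, Rack1 and Rps3a1. In marrow after 10 defeats Fau (0.54, adjusted p = 0.00722) and Rack1 (0.48, 0.00423) rose, and Rps3a1 had 0.27 (0.106). These 3 were higher in control spleen, by 1.15 to 1.34, and none of them was called in spleen after 10 defeats. Of the paralogues of ribosomal proteins, 8 of 15 listed passed the filter in marrow. There Rpl36al (0.82, adjusted p = 0.000873) and Rpl22l1 (0.53, 0.022) rose after 10 defeats. Rps4l (0.45), Rps27l (0.24), Rpl7l1 (0.08), Rpl3l (0.05) and Rps27rt (0.00) did not pass.

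In spleen after 10 defeats Rps27l, a p53 target (1.78, adjusted p = 0.0078), and Rpl7l1 (0.71, 0.00543) rose. Rps27rt (0.92), Rpl22l1 (0.82), Rpl36al (0.59), Rpl39l (0.43) and Rps4l (-0.03) did not pass. After 4 defeats in marrow Rpl36al rose by 0.57 (adjusted p = 0.0316) and Rps27rt fell by -1.01 (0.0275). Rps27rt is also a near-identical copy of the member Rps27, with 100% identity over 100% of the coding sequence. Its marrow values were 24.7 to 91.0, and how reads shared with Rps27 were divided is not known. Between control tissues Rps27rt (1.996), Rpl22l1 (1.30) and Rpl36al (0.81) were higher in spleen and Rpl3l, a muscle paralogue with values near 1, lower (-0.93). The difference between tissues in the 10-defeat change was called for Rps27l (1.54, adjusted p = 0.028) and Rpl7l1 (0.63, 0.0248).

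Lists of other genes of the ribosome pathway are read beside the 17.5% of all genes called higher and 28.3% called lower in marrow after 10 defeats. Of 40 assembly and rRNA processing factors, 1 rose and 15 fell in marrow after 10 defeats, with Wdr43 (-0.73), Dkc1, the pseudouridine synthase dyskerin (-0.76), and Eif6, a factor that keeps subunits apart (0.60), as examples. Of 22 RNA polymerase I and III genes 2 rose and 9 fell, among them Polr1b (-0.82) and the rDNA factor Ubtf (-0.47). Of 23 regulators tested 5 rose and 8 fell, including Myc (-0.73), Trp53 (-0.60) and Eif4ebp1, the mTOR target (0.89). Their medians were -0.19, -0.25 and -0.12, against -0.13 over all genes. Of 21 other TOP genes 7 rose and 2 fell, Vim (1.20) and Btf3 (0.67) first, and of 78 mitochondrial ribosomal protein genes 22 rose and 5 fell, Mrpl33 most clearly (1.06). With equal totals without haemoglobin the median of the TOP genes turned to -0.42 and that of the mitochondrial genes to -0.30. Both lay above the median of all genes under that setting, given above. Under quantile normalization the TOP and mitochondrial medians were -0.18 and 0.22, below and above that of all genes. The assembly and polymerase medians stayed below 0 under each of the 4 rescalings, from -0.62 to -0.06 and from -0.68 to -0.06. The median of all genes moved with these rescalings too, as given above.

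In spleen after 10 defeats, where 16.8% of all genes were called higher and 41.9% lower, 56 of 78 mitochondrial ribosomal protein genes rose and none fell, with a median of 0.76 and with Mrps28 (1.74), Mrps36 (1.55) and Mrps22 (1.29) as examples. Without the 5 libraries that favour short transcripts 20 of the 78 were higher and none lower (median 0.30), and with equal totals 15 (median 0.03). Of 40 assembly factors 6 rose, such as Mrto4 (1.56), and 11 fell, such as Utp20 (-1.54) and Heatr1 (-1.06). Of the polymerase genes 5 rose and 7 fell, Polr1a (-1.59) and Polr3a (-1.26) among them. Of the regulators 5 rose, such as Eif4ebp1 (1.28) and Mxd1 (1.16), and 9 fell, such as Tsc2 (-1.48). Of the TOP genes 5 rose, such as Eef1d (0.76), and 5 fell, such as Vim (-1.26) and Eef2 (-1.42). Without the 5 libraries the counts higher and lower were 8 and 2 of the assembly factors, 0 and 3 of the polymerase genes, 4 and 2 of the regulators and 1 and 1 of the TOP genes. For all genes, the shares called without the 5 libraries and with equal totals are given with the family's spleen results above. Between control tissues 12 TOP genes were higher in spleen and 1 lower, with Eef1a1 (1.27), Tpt1 (1.22) and Eef1g (0.97), and 16 of 78 mitochondrial genes were higher and 0 lower, where 27.1% of all genes were higher.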

How the data were processed

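Polyadenylated RNA of 37 mouse libraries was sequenced, per the labels' protocols, after TruSeq Stranded mRNA preparation. The authors deposited 1 table with a scaled abundance signal per gene and library. The submitters' processing notes name kallisto 0.46.1, sleuth and GRCm38, and the scaling and read depth are not given in the sources used here. Totals of these signal values are therefore no depth, and no counting interval was computed. Groups were taken from the sample labels.

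The low-value filter kept genes at 1 or more in 3 marrow, 2 spleen or, across tissues, 2 libraries (12442, 13945 and 14513 genes). Each tissue was fitted on log2(value + 1) over its 5 groups with limma 3.58.1 in R 4.3.3 (trended, robust empirical Bayes), p-values were adjusted by Benjamini-Hochberg over all genes, and a gene was called at an adjusted p under 0.05. Fold changes on this scale understate the change of low genes. The test was also run on simulated data with independent noise for each gene and library. These lack the shift shared by the 5 spleen libraries, so they cannot vouch for the spleen calls. Gene positions are from GENCODE M21 (99.3% of genes matched), promoters from RefSeq, and copies were found with blastn 2.17.0. Tables were handled with pandas 2.3.3 in Python 3.11.15. The alternatives were other scalings, pseudocount, filter, samples in the fit, a length and GC correction, copies added, libraries left out and a replicate block. The summed copies, the fit without the 5 spleen libraries and the pathway lists under other settings were chosen after the data had been seen.

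The members and all gene lists were chosen with earlier results of these data known. Named members are all called genes where these were 12 or fewer, otherwise the 6 largest rises and falls without overlap between groups. Added to them are the 3 farthest above and below the family median, the 3 most and least abundant, and a set of 10 reference genes. Genes singled out beyond this rule, such as Rpl4 and Rpl10a, were named after their values were seen. Some genes that meet these rules are not reported here by name. No protein sequences were used here.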

Additional observations from a re-analysis of the deposited data

Results flagged for a closer look

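Groups of 4 to 6 libraries were tested for a library far from the others, 222 times over 37 named members and 12 times for the family's median and share. Such a library was found in 9 of these 234 tests, where chance gives about 1 in 20. Library D17 after 1 defeat was high in marrow for Rpl7 (905) and Rps24 (2194). Library D9 after 10 defeats was high in marrow for Rpl30 (1041). In rested marrow D1 was low for Rpl39 (449), and D8 was high for Rps12 (1431) and Rpsa (1283). In spleen D6 was high for Rpl10 after 10 defeats (989.9), and D2, rested, for Rpl22 (2311) and Rps14 (24375). D6 and D2 are among the 5 libraries that favour short transcripts.

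For 9 members the change after 10 defeats differed between the tissues by limma's test of the difference, spleen minus bone marrow on the log2 scale. Of all genes 16.1% were called higher and 27.0% lower, against 6.58% and 5.26% of the members. Rpl12 (1.90, adjusted p = 0.0053), Rpl15 (1.27, 0.0229), Rps2 (0.97, 0.00967), Rpl3 (0.78, 0.0334) and Rpl10 (0.69, 0.023) were higher. Rpl30 (-1.23, 0.000101), Rps20 (-0.94, 0.00693), Rpl23 (-0.80, 0.00564) and Rpl28 (-0.77, 0.0392) were lower. Of these, Rpl30 was called under every setting tried. With copies added Rpl12, Rpl10 and Rpl28 did not pass, as given above.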

How the results depend on the processing

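Members are given as higher and lower. The counts in this section are of members only, and the settings move the calls of all genes as well. Shares of all genes are given above for part of the settings. The counts alone do not show changes particular to the family. Where 1 direction alone is given, the other can hold calls too. Sign changes are listed for part of the named members only, and further members turned. In marrow after 10 defeats the family median went from 0.30 to -0.12 with quantile normalization. With equal totals without haemoglobin it went to -0.19. Quantile normalization gave 0 higher after 4 defeats in marrow, 1 and 22 after 10, and 10 and 2 for rested against 10 defeats. It gave 1 lower after 1 spleen defeat, 13 and 2 after 10 spleen defeats and 45 higher in control spleen. The tissue difference of the 10-defeat change had 25 and 3. Relative to the family there were 8 and 4 in rested marrow and 11 and 4 in control spleen. Under it Rpl11 (-0.44), Rpl22 (-0.0657), Rpl41 (-0.12) and Rpsa (-0.0033) in marrow after 10 defeats, Rplp0 after rest (0.25) and Rpl5 in the relative tissue fit (0.18) changed sign. Equal totals without haemoglobin gave 0 and 2 after 4 marrow defeats, 2 and 27 after 10, and 19 and 0 after rest. This setting gave 1 lower after 1 spleen defeat, 18 and 3 after 10 spleen defeats, and 23 and 2 in the tissue difference. Under it Rpl11 (-0.48), Rpl22 (-0.082), Rpl41 (-0.12), Rplp0 (-0.29), Rps6 (-0.004871) and Rpsa (-0.049) after 10 marrow defeats and Rplp0 after rest (0.27) changed sign. Equal totals gave 4 higher after 4 marrow defeats, 2 and 4 after rest, 1 and 9 after 10 spleen defeats, 1 lower in rested against control spleen, and 2 and 24 in the tissue difference, with Rpl3 in spleen (-0.067) and Rpl10 in the difference (-0.0039) reversed. Median-ratio rescaling gave 19 higher after 4 marrow defeats, 33 and 0 after 10 spleen defeats and 5 and 1 in the difference. The cause of these shifts was not tested.

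Without the 5 spleen libraries 1 and 14 were called after 1 spleen defeat, 1 and 2 after 10 and 2 lower in rested against control spleen. There were 0 and 29 in the difference, and 1 and 1 relative to the family. Rpl5 in spleen (-0.62) and Rpl22 (-0.73) and Rps19 (-0.75) in the difference turned negative, among further members not listed. The family median went from 0.57 to -0.18 in spleen after 10 defeats and from 0.24 to -0.52 in the difference. Fitting only the compared groups gave 18 higher after 4 marrow defeats, 8 lower after rest, 1 and 14 after 1 spleen defeat, 6 higher after 10, 3 higher in the difference, and 5 and 2 relative to the family in rested marrow. With no filter there were 6 higher after 4 marrow defeats, 12 lower after rest, 7 higher after 10 spleen defeats and 4 relatively lower in control spleen. Removing the length and GC trend gave 8 and 2 after 10 spleen defeats, 1 lower after spleen rest, and 3 and 9 in the difference. Summing all copies gave 0 lower after 10 marrow defeats, 0 higher after rest, 7 higher after 10 spleen defeats, 3 higher in the difference, 7 relatively lower in marrow after 10 defeats, 3 relatively higher after rest, and a relative tissue value of 0.13 for Rpl5. Summing pseudogenes by name gave 3 higher in the difference and 8 lower and 4 higher in those 2 relative fits.

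Leaving out 1 library at a time gave 0 to 9 higher after 4 marrow defeats, 19 to 42 after 10, 0 to 1 higher and 4 to 32 lower after rest, 3 to 31 higher after 10 spleen defeats, and 3 to 11 higher and 3 to 5 lower in the difference. Relative to the family it gave 7 to 13 and 8 to 20 in marrow after 10 defeats, 4 to 16 and 0 to 10 after rest, 4 to 13 and 2 to 9 in spleen, and 3 to 7 and 3 to 10 between tissues.

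Library numbers recur in both tissues, and with the replicate block the tissue comparison called 72 and 0 and the difference 5 and 5 members. The 15 shared numbers carry the same treatment in both tissues, and the labels do not say whether a number marks the same mouse. Of these number pairs 5 correlated above 0.1 in their deviations from the group means, which cannot decide this. The main fits left the numbers unpaired, and the block's consensus correlation was 0.0113. With no read counts given, the depth behind low values such as those of Rpl5 and Rpl12 is unknown.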
